A study of Homo sapiens with 12 samples.

Results

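The transcriptional response of NT2/D1 cells to cisplatin was measured as 3 arrays of cisplatin-treated cells against 3 arrays of control cells. NT2/D1 is an established human line of embryonal carcinoma, the pluripotent stem cell of nonseminomatous testicular germ cell tumors. The cisplatin group received 0.5 µM cisplatin for 6 hours and was harvested for RNA after 24 hours without drug, while control cells were untreated going by the labels, although the series text speaks of vehicle. The same series held 3 arrays of cells given 10 nM 5-aza deoxycytidine (5-aza) for 1 day and 3 arrays of cells given it for 3 days, which are used below only as a comparison. No group carried a genetic change, and a single line was tested. The comparison took in every probe whose detection p was below 0.05 on 3 or more of these 6 arrays, 17279 of 47231 on the array. Of these, 13245 could be given a gene symbol and stood for 10353 genes, each read by its brightest kept probe, and 4034 had no symbol.

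Cisplatin binds to purines in DNA and forms intrastrand and interstrand crosslinks, which block replication and transcription and activate the p53 pathway. p53 is a transcription factor that raises genes of cell cycle arrest, DNA repair, antioxidant defense and apoptosis, and lowers many mitotic genes indirectly through the arrest it sets up. Embryonal carcinoma cells usually keep wild type p53 and are known for their sensitivity to cisplatin.

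The 3 cisplatin arrays were not alike. Per array, 7.31%, 31.8% and 34% of genes on cisplatin replicates 1, 2 and 3 lay at least 1.5-fold from the control mean and outside the range of the 3 control arrays. Genes had a median SD of 0.37 log2 units among cisplatin arrays and 0.17 among control arrays, and cisplatin arrays correlated with each other at r = 0.955 (replicates 1 and 2), 0.919 (1 and 3) and 0.944 (2 and 3) across genes, which are not independent replicates. The median probe intensity was 160.3, 161.5 and 173.5 on the cisplatin arrays and 180 to 188.4 on the control arrays, and the numbers of detected probes were 16318, 17146 and 19824 on the cisplatin arrays and 15435 to 17566 on the control arrays. Of 8 markers of embryonal carcinoma, 7 were kept and all 7 were detected on all 6 arrays, with a mean level of 12.0 to 12.4 log2 units on cisplatin arrays and 12.3 to 12.4 on control arrays. None of 5 trophectoderm markers and 2 of 10 blood markers (CD14 and CD68) were kept. By the header of the deposited table, all 12 arrays shared 1 BeadChip, with positions in the order of the groups, so array position and group cannot be told apart. The labels give replicate numbers only, while the study describes its array replicates as biological, and p-values describe the spread between these samples.

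Cisplatin raised a small group of genes. In limma on the 6 arrays, 10 genes rose at an adjusted p under 0.05 (0.0966% of genes tested) and 0 fell (0%). At an unadjusted p under 0.05 there were 1039 genes, 445 higher and 594 lower. The genes that rose encode a cyclin-dependent kinase inhibitor (CDKN1A), DNA damage and repair proteins (GADD45A, DDB2), regulators of AKT and mTOR signaling (PHLDA3, SESN1), a secreted stress factor (GDF15), a lipid phosphatase (INPP5D), complement factor D (CFD), smooth muscle actin (ACTA2) and VWCE, a von Willebrand factor C and EGF domain protein. Of the 10, 7 were in a list of known pathway genes, where 4.2% of tested genes were, and 6 were in the p53 lists, where 0.386% were. The lists were assembled with earlier results of these data known, so these counts are not independent evidence. No probe without a gene symbol passed the test, and 1 further probe, the dimmer probe of a gene described below, rose.

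CDKN1A, on chromosome 6, encodes p21, which arrests the cell cycle by inhibiting cyclin-dependent kinases. Its normalized level was 10.71, 11.06 and 11.35 log2 units on the cisplatin arrays, against 6.95, 7.04 and 7.12 on the control arrays. The groups were far apart and the difference was 4.001 ± 0.22 log2 units (SE, n = 3 each, 16-fold, limma adjusted p = 0.000476). Among the called genes detected on control arrays, this was the largest difference.

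GDF15, on chromosome 19, encodes a secreted member of the TGF-beta family that is induced by cellular stress. It reached 8.65, 8.75 and 8.76 log2 units on the cisplatin arrays, against 5.67, 5.35 and 5.56 on the control arrays, where it was detected on none. Since the control level was only bounded, the rise is given as at least 5.21-fold (limma adjusted p = 0.000516). The bound sets the mean of the bright group against the lowest signal of any detected probe on each array of the dim group, and it is used for every such gene below. The 3 cisplatin values of GDF15 lay within a narrow band, with an SD of 0.066 log2 units.

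GADD45A, on chromosome 1, encodes a stress sensor that takes part in growth arrest and DNA repair. It stood at 10.38, 10.50 and 10.29 log2 units on the cisplatin arrays, against 7.84, 7.70 and 8.14 on the control arrays, a rise of 2.50 ± 0.21 log2 units (limma adjusted p = 0.0036). A second probe of GADD45A read 9.22, 10.23 and 10.31 log2 units on the cisplatin arrays, against 7.58, 7.52 and 7.98 on the control arrays (2.23 ± 0.31, adjusted p = 0.0607), so both probes showed cisplatin arrays above all controls.

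ACTA2, on chromosome 10, encodes alpha smooth muscle actin and belonged to the list of contractile and matrix genes rather than to a damage list. It read 8.49, 8.64 and 7.95 log2 units on the cisplatin arrays, against 5.48, 5.38 and 5.66 on the control arrays, where it was not detected (at least 4.05-fold, limma adjusted p = 0.0036). TAGLN, which encodes the actin-binding protein transgelin of smooth muscle, read 10.21, 10.06 and 9.66 on the cisplatin arrays, against 8.87, 9.15 and 9.13 on the control arrays (0.93 ± 0.22 log2 units, adjusted p = 0.441). A dimmer TAGLN probe read 8.19, 7.29 and 8.48 on the cisplatin arrays, against 7.45, 7.43 and 7.11 on the control arrays (0.66 ± 0.31). There cisplatin replicate 2 lay within the control range. In this list of 26 tested genes, ACTA2 rose and 25 did not pass, with a median of 0.19 log2 units against -0.04 over all genes. The fibroblast markers fixed beside it did not set the groups apart, with mean levels of 7.19 to 7.70 log2 units on the cisplatin arrays and 7.33 to 7.46 on the control arrays, 5 of 7 kept, 2 detected on all 6 arrays, and DCN and LUM below detection.

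SESN1, on chromosome 6, encodes a sestrin that restrains mTORC1 and protects from oxidative stress. It read 9.59, 8.94 and 9.71 log2 units on the cisplatin arrays, against 7.10, 6.85 and 7.21 on the control arrays (2.36 ± 0.25, 5.14-fold, limma adjusted p = 0.0244). PHLDA3, on chromosome 1, encodes a pleckstrin homology protein that competes with AKT for membrane lipids. It varied most among the genes that rose, at 7.89, 8.84 and 9.93 log2 units on the cisplatin arrays, against 5.68, 5.43 and 5.31 on the control arrays (at least 5.85-fold, adjusted p = 0.0482). Cisplatin replicate 1 had the lowest and replicate 3 the highest value of PHLDA3, and all 3 exceeded every control.

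DDB2, on chromosome 11, encodes the damage-binding subunit that recognises DNA lesions in nucleotide excision repair. It read 7.34, 7.63 and 8.52 log2 units on the cisplatin arrays, against 5.49, 5.35 and 5.38 on the control arrays, where it was not detected (at least 2.81-fold, limma adjusted p = 0.0482). The promoter window of DDB2 in RefSeq is printed because, of the 8 called genes with a window, it alone holds a full p53 site, that is 2 p53 half-sites in a row, inside the 300 bases around a transcript start (250 before and 50 after). Capitals mark the half-sites, which are separated by a spacer of 1 base. The window lies at chr11:47214724-47215023 of GRCh38.p14, on the plus strand. The other DDB2 window, at a second transcript start, holds no half-site.
DDB2: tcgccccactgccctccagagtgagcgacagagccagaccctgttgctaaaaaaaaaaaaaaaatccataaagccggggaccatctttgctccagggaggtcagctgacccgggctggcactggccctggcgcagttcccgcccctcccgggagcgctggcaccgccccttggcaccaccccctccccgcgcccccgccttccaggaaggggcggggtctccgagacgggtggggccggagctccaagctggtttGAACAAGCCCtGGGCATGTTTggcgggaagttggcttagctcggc

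INPP5D, on chromosome 2, encodes SHIP1, a phosphatase of phosphoinositides known chiefly from blood cells. It read 8.44, 8.94 and 7.97 log2 units on the cisplatin arrays, against 6.33, 6.31 and 6.20 on the control arrays (2.17 ± 0.26, 4.51-fold, limma adjusted p = 0.0471), with detection on 1 of the 3 controls. Among the blood markers, PTPRC, HBB, ITGAM and LYZ were below the detection rule, and the mean of CD14 and CD68 was 7.21 to 8.29 log2 units on the cisplatin arrays and 7.31 to 7.69 on the control arrays. VWCE, on chromosome 11, read 7.72, 8.82 and 7.95 on the cisplatin arrays, against 5.54, 6.05 and 5.73 on the control arrays (at least 3.53-fold, adjusted p = 0.0482). CFD, on chromosome 19, encodes the serine protease that starts the alternative complement pathway and read 7.01, 7.28 and 7.33 on the cisplatin arrays, against 5.63, 5.38 and 5.74 on the control arrays (at least 1.82-fold, adjusted p = 0.0482). In each of these genes the lowest cisplatin array lay above the highest control array.

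**Figure D1:**
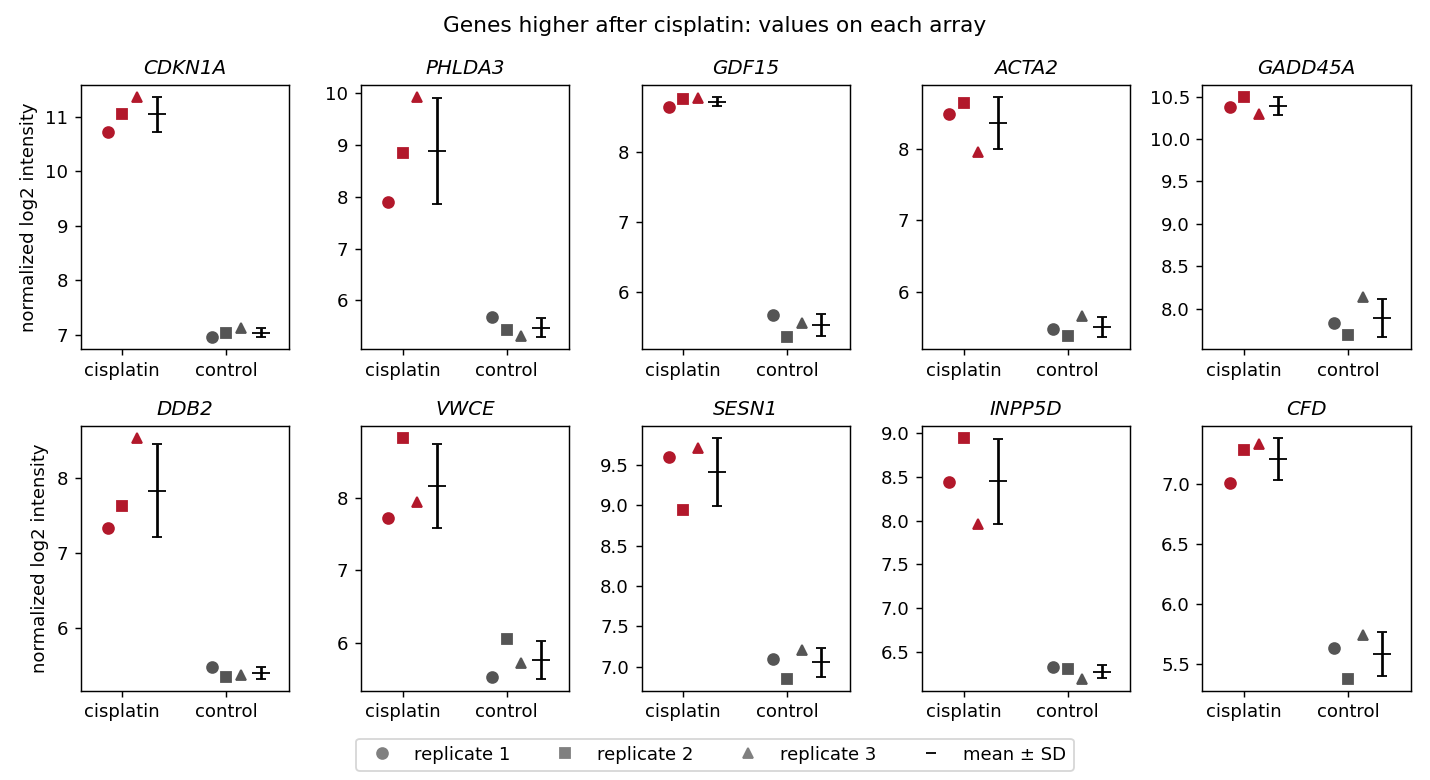
Normalized log2 intensity (vertical axes, 1 panel per gene, each with its own scale that does not start at 0) of the 10 genes that rose, for cisplatin arrays (red) and control arrays (gray). Markers give the replicates and the black bars the mean ± SD, and in every panel all 3 cisplatin arrays lie above all 3 controls, with PHLDA3 spread most widely, from 7.89 to 9.93.

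These calls rested on few arrays. CDKN1A and GDF15 passed without any single array, with adjusted p of at most 0.0166 each. ACTA2 and GADD45A missed the threshold without control replicate 1 (adjusted p = 0.0645 each) or control replicate 2 (0.0835 each), and the other 6 genes missed it whichever control was left out, and 5 of them (PHLDA3, DDB2, VWCE, INPP5D and CFD) also without cisplatin replicate 2. The number of genes called was 920 without cisplatin replicate 1 (358 higher, 562 lower), 5 without cisplatin replicate 2, 20 without cisplatin replicate 3, and 2, 2 and 4 without control replicates 1, 2 and 3. When all 12 arrays shared 1 estimate of the spread, 81 genes rose and 27 fell, all 10 genes above among them. GDF15, ACTA2, PHLDA3, DDB2, VWCE and CFD were detected on no control array, so they passed the detection filter only through the cisplatin arrays. With no filter on dim probes, only CDKN1A, GDF15 and GADD45A were called.

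Changes present on every cisplatin array were separated from those on single arrays. An array was said to show a gene when the gene lay at least 1.5-fold from the control mean and outside all 3 controls. All 3 cisplatin arrays showed 95 genes as higher (0.918%) and 32 as lower (0.309%), 2 arrays showed 588 and 853, and 1 array alone showed 1738 and 1937. In 295 genes arrays disagreed in direction, and 4815 genes (46.5%) were shown by none. Under the same rule, 99 genes in 1 day 5-aza and 1478 in 3 day 5-aza were shown by all 3 arrays, against 738 and 1215 by a single array. In cisplatin, 3675 genes were on single arrays and 127 on all 3. With median scaling the count on all 3 arrays was 150 higher and 16 lower, and with cyclic loess 138 and 16, so the share of higher genes moved with the scaling.

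**Figure D2:**
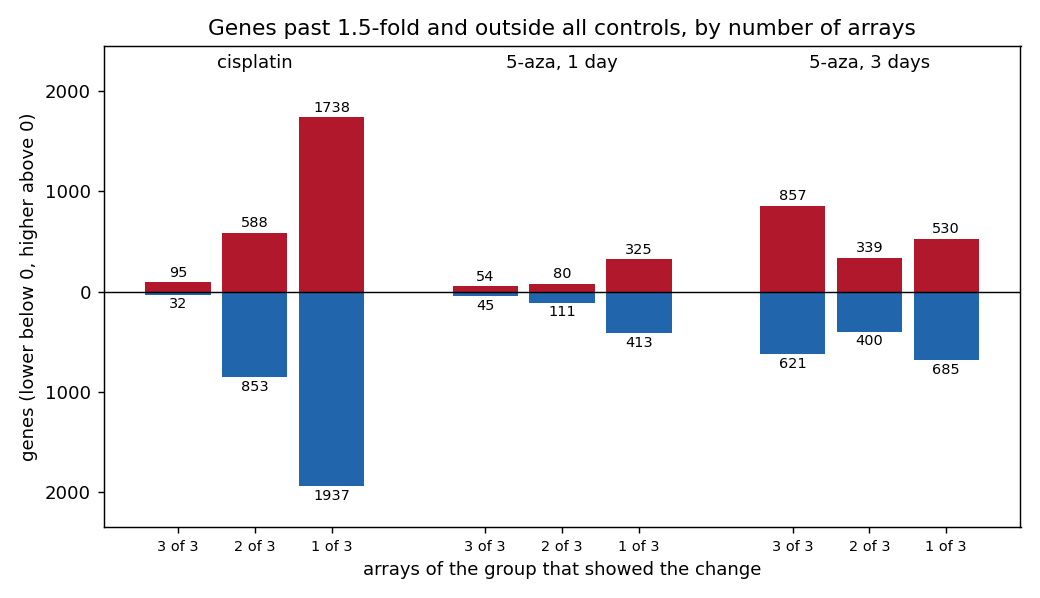
Number of genes (vertical axis, higher above 0 in red, lower below 0 in blue) that lay at least 1.5-fold from the control mean and outside all controls on all 3, on 2 or on 1 of the 3 arrays of each treated group. Cisplatin had 95 higher and 32 lower genes on all 3 arrays and 1738 and 1937 on single arrays, while 3 day 5-aza had 857 and 621 on all 3 arrays.

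The genes shown by all 3 cisplatin arrays were chosen for that pattern, so their values are a description. The 95 higher genes had a median difference of 1.10 log2 units (0.60 to 4.001), or 1.04 with undetected genes at their bound. All 95 were detected on all 3 cisplatin arrays, and 19 were detected on no control array. Those 19 could pass the filter only by detection on all 3 cisplatin arrays, so for them that detection was set by the rule. The 32 lower genes had a median of -0.87 (-2.02 to -0.62), and 3 of them were detected on no cisplatin array. At the 1.5-fold limit (a log2 difference), TSPAN11 was just inside with 0.5854 on its weakest array, and C2CD4B, with 0.584 on its weakest array, was just outside.

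Beyond the 10 called genes, the 95 held further known p53 targets whose adjusted p missed the threshold. TNFRSF10B, a death receptor for the ligand TRAIL, read 10.63, 11.40 and 11.47 log2 units on the cisplatin arrays, against 9.24, 9.29 and 9.48 on the control arrays (1.83 ± 0.26, limma adjusted p = 0.0607). IER3, an immediate early gene that acts on survival signaling, read 10.20, 10.25 and 10.00 on the cisplatin arrays, against 8.17, 8.80 and 8.65 on the control arrays (1.61 ± 0.23, adjusted p = 0.0607). SPATA18, a regulator of mitochondrial quality, read 7.09, 6.69 and 6.56 on the cisplatin arrays, against 5.31, 5.20 and 5.34 on the control arrays, where it was not detected (at least 1.36-fold, adjusted p = 0.0607). Each of these stood clear of the controls on every cisplatin array.

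RPS27L, a ribosomal protein paralog controlled by p53, read 12.77, 12.38 and 12.84 log2 units on the cisplatin arrays, against 11.39, 11.10 and 11.18 on the control arrays (1.44 ± 0.21, adjusted p = 0.0747 in limma). FOSL1, a subunit of AP-1, read 8.24, 7.64 and 8.81 on the cisplatin arrays, against 6.17, 6.33 and 6.27 on the control arrays, where it was not detected (at least 3.70-fold, adjusted p = 0.0747). AEN, an apoptosis-enhancing nuclease, read 11.69, 12.57 and 11.77 on the cisplatin arrays, against 10.95, 10.98 and 10.99 on the control arrays (1.04 ± 0.26, adjusted p = 0.49). BAX, the pore-forming effector of mitochondrial apoptosis, was uneven, with 9.74 and 9.66 on cisplatin replicates 1 and 2 and 11.31 on replicate 3, against 9.04, 8.43 and 8.63 on the control arrays (1.54 ± 0.42, adjusted p = 0.492), and its dimmer probe differed by 0.18 ± 0.25.

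Short promoter stretches with a p53 half-site (capitals) are printed for 4 further genes of this group, as examples from called genes and p53 targets. The other genes higher on all 3 arrays with a half-site were CREB5, NCEH1, OSBP2 and RCAN1. All are from RefSeq on GRCh38.p14, on the strand of the gene: ACTA2 at chr10:88991532-88991571 (minus), SESN1 at chr6:109009013-109009052 (minus), AEN at chr15:88621291-88621330 (plus) and RPS27L at chr15:63157512-63157551 (minus). ACTA2 has 2 windows, of which 1 holds 2 half-sites (1 is shown) and the other none. SESN1 has 3 windows, and only 1 holds a half-site.
ACTA2: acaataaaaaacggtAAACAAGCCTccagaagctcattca
SESN1: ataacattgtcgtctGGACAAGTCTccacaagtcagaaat
AEN: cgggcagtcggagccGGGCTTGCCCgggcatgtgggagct
RPS27L: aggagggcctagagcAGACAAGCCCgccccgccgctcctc

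The half-site pattern as a whole reads the same on both strands, so 1 search covered both. At least 1 half-site was found for 9 of the 70 genes higher on all 3 arrays that had a window (12.9%), for 2 of the 21 lower genes (9.52%) and for 3 of 8 called genes, against 6.63% of all 35116 windows and 7.63% of the tested genes with a window. A full site was in 0.0285% of all windows. The AP-1 motif TGANTCA was found for 9 of the 70 higher genes (12.9%), against 6.92% of tested genes with a window and 7.71% of all windows. The motif TGACGTCA was found for 4 of the 70 (5.71%), against 3.98% of tested genes with a window and 1.85% of all windows. The CDKN1A, GDF15, INPP5D, CFD and VWCE windows held no half-site within these 300 bases. A match is a description of the sequence, and no binding was measured here.

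By role, the list of p53 feedback and stability regulators had the largest median. Like the other lists, it was assembled with earlier results of these data known. Of its 12 tested genes, 2 rose (PHLDA3 and SESN1, which act on AKT and mTOR signaling) and 10 did not pass. Among all genes, 0.0966% rose. The median difference was 0.96 log2 units against -0.04 over all genes. On all 3 arrays 4 were higher, where 0.918% of all genes were. The 2 others shown by all 3 arrays were PPM1D, the phosphatase that turns off p53 signaling, and TRIM22, an antiviral ubiquitin ligase. PPM1D read 9.56, 9.26 and 8.99 on the cisplatin arrays, against 8.33, 8.21 and 8.36 on the control arrays (0.97 ± 0.22 log2 units, limma adjusted p = 0.38). TRIM22 read 8.89, 8.35 and 9.26 on the cisplatin arrays, against 7.42, 6.87 and 6.99 on the control arrays (1.75 ± 0.28, adjusted p = 0.112).

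MDM2, the ubiquitin ligase that degrades p53, did not pass on this probe, with 7.12, 6.95 and 6.92 log2 units on the cisplatin arrays, against 6.71, 6.58 and 6.40 on the control arrays (0.43 ± 0.20, limma adjusted p = 0.495). ZMAT3, a zinc finger RNA-binding protein induced by p53, had probes that disagreed. Its brightest probe read 13.39, 12.77 and 13.95 on the cisplatin arrays, against 13.60, 13.07 and 13.45 on the control arrays, and the groups overlapped (-0.00 ± 0.31, adjusted p = 0.999). A dimmer ZMAT3 probe read 9.82, 9.78 and 9.57 on the cisplatin arrays, against 7.996, 7.83 and 8.17 on the control arrays, and rose by 1.73 ± 0.20 log2 units (adjusted p = 0.0383). This was the 1 additional probe called.

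Of 28 tested arrest and repair targets of p53, a list assembled in the same way, 4 rose (CDKN1A, GDF15, GADD45A, DDB2) and 24 did not pass. Among all genes, 0.0966% rose. The list median was 0.53 log2 units, or 0.475 with the 4 members not detected in a group at their bound. Across arrays the list was even, with medians of 0.48, 0.53 and 0.51 log2 units on cisplatin replicates 1, 2 and 3, although replicate 1 lay near the controls in most other genes. On all 3 arrays 7 members were higher, where 0.918% of all genes were. The 1 member lower on all 3 (0.309% of all genes were) was PLK1, a mitotic kinase. RRM2B, the p53-inducible ribonucleotide reductase subunit, read 7.44, 7.37 and 7.62 on the cisplatin arrays, against 6.27, 6.75 and 6.56 on the control arrays (0.95 ± 0.21, limma adjusted p = 0.38).

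**Figure D3:**
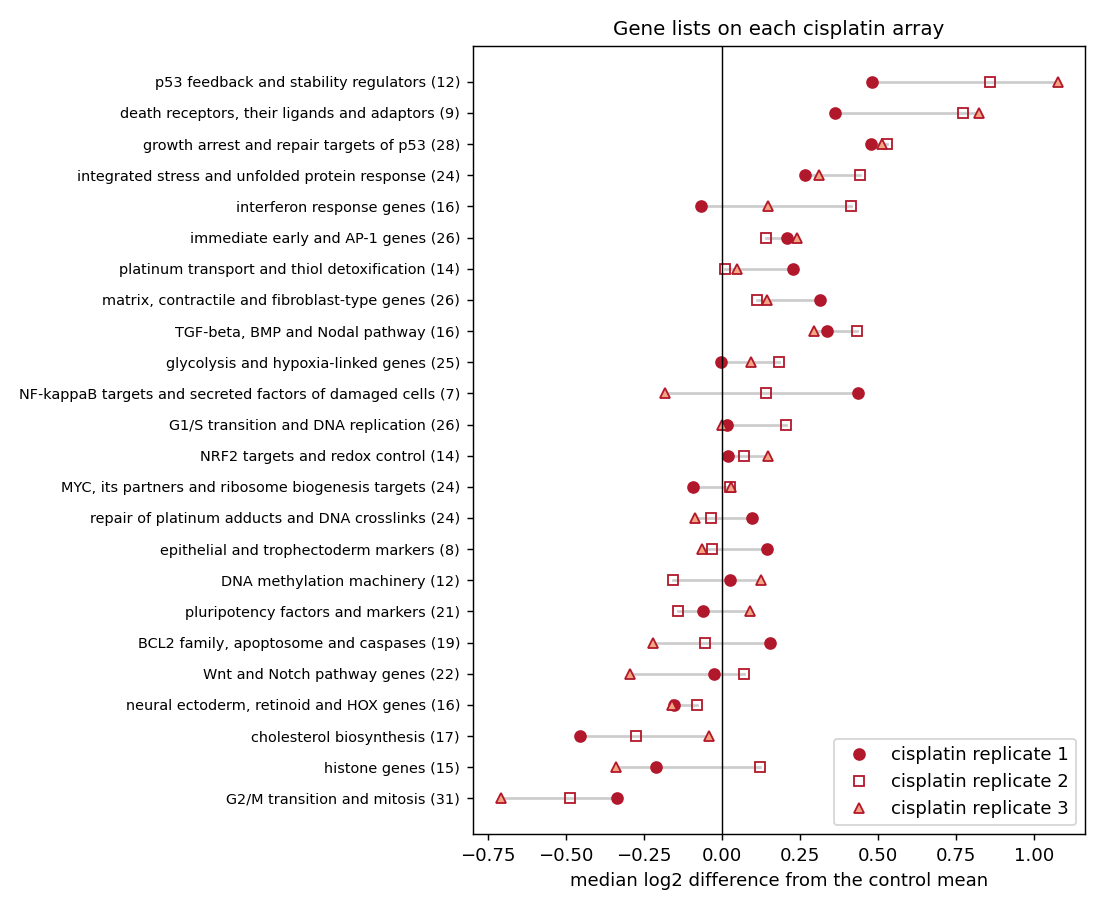
Median log2 difference from the control mean (horizontal axis) of the tested members of each gene list (number in brackets) on cisplatin replicates 1, 2 and 3, with a gray line joining the 3 arrays. The p53 feedback list has 0.48, 0.86 and 1.08, the arrest list 0.48, 0.53 and 0.51, and the G2/M list -0.33, -0.49 and -0.71. Some other lists straddle 0, and others also keep 1 sign on all 3 arrays. Examples of these are death receptors (0.36, 0.77 and 0.82), stress responses (0.27, 0.44 and 0.31) and cholesterol (-0.46, -0.28 and -0.04).

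Genes of the death receptor pathway lay mostly above the controls. Of 9 tested death receptors and adaptors none passed, but in 6 all cisplatin arrays exceeded all controls, where 6.8% of all genes did so. The list median was 0.70 log2 units. Under the stricter 1.5-fold rule, 2 genes (TNFRSF10A and TNFRSF10B) were higher on all 3 arrays, where 0.918% of all genes were. TNFRSF10A, the other TRAIL receptor that signals death, read 7.86, 7.95 and 8.43 on the cisplatin arrays, against 7.47, 7.12 and 6.92 on the control arrays (0.90 ± 0.24, limma adjusted p = 0.492). FADD, the adaptor that links these receptors to caspases, read 9.71, 10.55 and 10.28 on the cisplatin arrays, against 9.26, 9.53 and 9.57 on the control arrays (0.73 ± 0.26, adjusted p = 0.492). FAS was not above background on 3 arrays and was not tested.

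Of 19 tested genes of the BCL2 family, the apoptosome and caspases, none passed and the median was -0.02 log2 units. AEN and BAX, above, were the members shown by all 3 arrays. PMAIP1, which encodes the BH3-only protein NOXA, read 11.19, 10.99 and 10.29 on the cisplatin arrays, against 10.97, 10.80 and 11.38 on the control arrays (-0.22 ± 0.28, limma adjusted p = 0.773), and the groups overlapped. MCL1, an antiapoptotic member, read 10.93, 10.93 and 11.16 on the cisplatin arrays, against 10.65, 10.84 and 10.84 on the control arrays (0.23 ± 0.19, adjusted p = 0.652). BBC3, which encodes PUMA, was not tested.

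Among repair and drug handling genes, DDB2 alone passed. Of 24 tested genes for repair of platinum adducts and crosslinks, DDB2 rose and 23 did not pass, with a median of -0.01 log2 units. XPC, the partner of DDB2 in lesion recognition, read 10.28, 9.73 and 10.86 on the cisplatin arrays, against 10.00, 10.26 and 10.14 on the control arrays, and the groups overlapped (0.16 ± 0.29, limma adjusted p = 0.847). No member of the 14 tested platinum transport and thiol genes (median 0.20 log2 units) or the 14 tested NRF2 targets (0.09) passed or was shown by all 3 arrays.

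Genes of G2/M and mitosis lay below the controls as a group, though none passed the test. Of 31 tested, all cisplatin arrays lay below all controls in 14, where 9.64% of all genes did so, and above them in 0. Under the stricter 1.5-fold rule, 2 genes (BUB1B and PLK1) were lower on all 3 arrays, where 0.309% of all genes were. By that rule 7 were lower on 2 arrays, 12 on 1 array, and 3 changed in opposite directions. The group difference was below 0 in 28 of 31, against 54.3% of all genes, and all 3 arrays were below the control mean in 19 (61.3%), against 20.7% of all genes. The list medians were -0.33, -0.49 and -0.71 log2 units on cisplatin replicates 1, 2 and 3, so that replicate 1 also showed it. In bulk RNA, fewer cells in mitosis and less RNA per cell cannot be told apart.

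PLK1 read 8.997, 8.51 and 8.10 log2 units on the cisplatin arrays, against 9.76, 9.70 and 9.69 on the control arrays (-1.18 ± 0.25, limma adjusted p = 0.341). BUB1B, a kinase of the spindle checkpoint, read 8.98, 8.23 and 8.82 on the cisplatin arrays, against 9.77, 9.66 and 9.39 on the control arrays (-0.93 ± 0.25, adjusted p = 0.492). TOP2A, the topoisomerase that untangles sister chromatids, read 11.95, 11.11 and 11.34 on the cisplatin arrays, against 12.48, 12.45 and 12.35 on the control arrays (-0.96 ± 0.25, adjusted p = 0.492). All 3 genes were lower on every cisplatin array than on any control array.

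Other mitotic genes did not share this. AURKB, the kinase of the chromosomal passenger complex, read 10.18, 10.52 and 11.53 log2 units on the cisplatin arrays, against 11.19, 11.06 and 10.55 on the control arrays, and FOXM1, a transcription factor of mitotic genes, read 9.73, 9.98 and 11.77 on the cisplatin arrays, against 10.32, 9.99 and 9.59 on the control arrays. In both, cisplatin replicate 3 was the highest array of all 6, and the groups overlapped. Genes of G1/S and DNA replication had a median of 0.09 log2 units over 26 tested members. TYMS, thymidylate synthase, was the G1/S member shown by all 3 arrays, with 12.02, 12.23 and 12.38 on the cisplatin arrays, against 11.37, 11.47 and 11.44 on the control arrays (0.78 ± 0.20, limma adjusted p = 0.482).

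**Figure D4:**
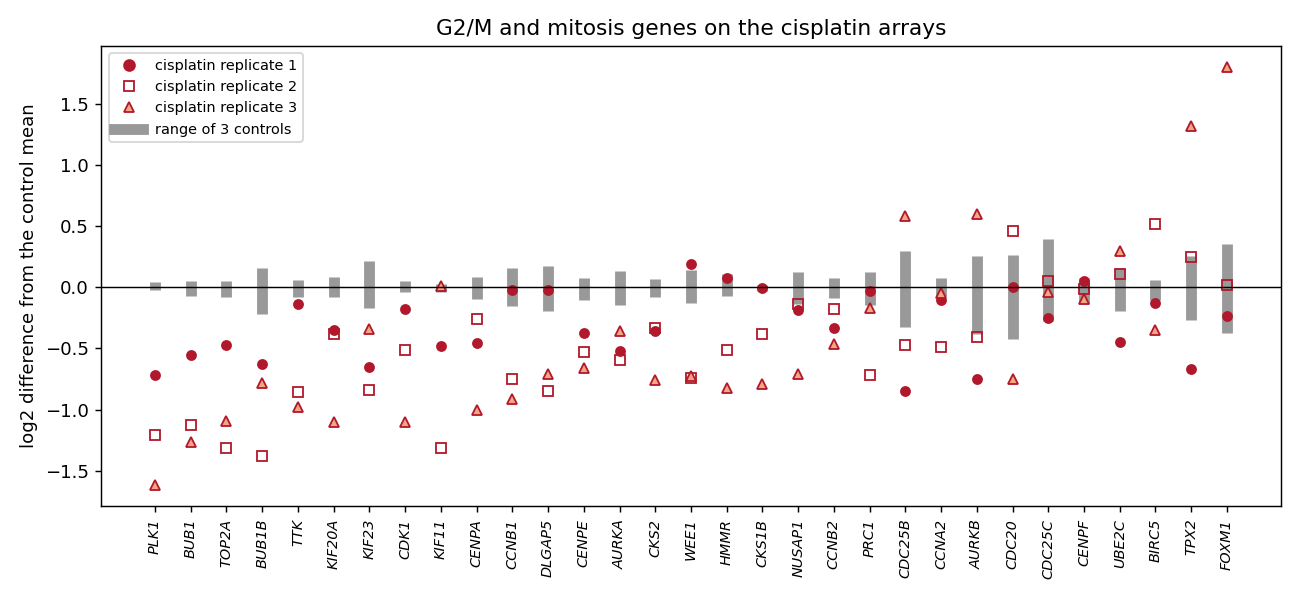
Log2 difference from the control mean (vertical axis) of the 31 tested G2/M and mitosis genes on cisplatin replicates 1, 2 and 3, with gray bars for the range of the 3 controls and genes ordered by the mean difference. Most markers lie below 0 on all 3 arrays, PLK1 lowest with a mean of -1.18, while AURKB, TPX2 and FOXM1 at the right lie above the controls on replicate 3.

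The genes lower on all 3 cisplatin arrays included developmental factors. HESX1, a homeobox repressor of the anterior neural plate, read 8.65, 6.88 and 6.99 log2 units on the cisplatin arrays, against 9.41, 9.48 and 9.71 on the control arrays (-2.02 ± 0.43, limma adjusted p = 0.338). SHISA2, which retains Wnt and FGF receptors inside the cell, read 9.43, 8.12 and 8.49 on the cisplatin arrays, against 10.25, 10.57 and 10.52 on the control arrays (-1.77 ± 0.33, adjusted p = 0.211). SOX11, a neural and progenitor transcription factor, read 9.30, 9.47 and 9.18 on the cisplatin arrays, against 10.46, 10.26 and 10.32 on the control arrays (-1.03 ± 0.19, adjusted p = 0.234). SOX11 was the most even of these across arrays, while HESX1 differed far less on replicate 1 than on the others.

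Among Wnt genes, FZD7, a Frizzled receptor, read 8.84, 8.47 and 8.97 log2 units on the cisplatin arrays, against 10.11, 9.66 and 9.57 on the control arrays (-1.02 ± 0.24, limma adjusted p = 0.427), but its dimmer probe ran the other way, at 0.81 ± 0.21 (adjusted p = 0.492). WNT5A, a ligand of noncanonical Wnt signaling, read 7.58, 5.52 and 6.88 on the cisplatin arrays, against 8.53, 7.996 and 8.23 on the control arrays (-1.59 ± 0.46, adjusted p = 0.492). The 22 tested Wnt and Notch genes had a median of -0.07 log2 units, near that of all genes.

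NPTX1, a secreted pentraxin of neurons, read 6.07, 5.95 and 5.84 log2 units on the cisplatin arrays, where it was not detected, against 6.91, 7.13 and 7.47 on the control arrays (at least 1.86-fold lower, limma adjusted p = 0.202). TOX3, a chromatin protein, read 8.08, 6.67 and 7.74 on the cisplatin arrays, against 9.26, 8.79 and 9.01 on the control arrays (-1.53 ± 0.35, adjusted p = 0.419). The remaining lower genes named by rule, KCNA5 (a potassium channel), DET1 (a ubiquitin ligase component), PPM1N (a phosphatase) and OSGEPL1 (a mitochondrial tRNA-modifying enzyme), differed by -0.90, -0.81, -0.87 and -0.85 log2 units with adjusted p of 0.337 to 0.48, and the dimmer probe of DET1 differed by 0.32. HORMAD1, a meiotic chromosome protein, was not detected on the cisplatin arrays (at least 1.15-fold lower, adjusted p = 0.427). HMGB2, a chromatin protein of dividing cells, and TOP1, topoisomerase I, were also lower on all 3 arrays, by -1.33 ± 0.33 and -0.89 ± 0.24.

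The pluripotency genes of these cells did not separate the groups. Of 21 tested, none passed, none was shown by all 3 arrays, and the median was -0.02 log2 units. NANOG, a core pluripotency factor, read 11.41, 11.20 and 11.57 on the cisplatin arrays, against 11.26, 11.27 and 11.31 on the control arrays (0.11 ± 0.20, limma adjusted p = 0.84). GDF3, a ligand related to TGF-beta that pluripotent cells secrete, read 11.74, 11.38 and 12.13 on the cisplatin arrays, against 11.63, 11.38 and 11.36 on the control arrays (0.29 ± 0.24, adjusted p = 0.647). In both, the cisplatin range overlapped that of the controls.

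SOX2 and DNMT3B varied by array. SOX2, a partner of OCT4, read 12.75, 11.70 and 11.99 log2 units on the cisplatin arrays, against 12.67, 12.67 and 12.999 on the control arrays (-0.63 ± 0.29, limma adjusted p = 0.495). On this probe only cisplatin replicate 1 overlapped the controls, and without it the adjusted p was 0.0366. A dimmer SOX2 probe read 11.09, 10.96 and 11.57 on the cisplatin arrays, against 11.69, 11.68 and 11.32 on the control arrays. It differed by -0.36 ± 0.24 (adjusted p = 0.573), and there replicate 3 lay within the control range. DNMT3B, the de novo DNA methyltransferase that is abundant in embryonal carcinoma, read 11.81, 11.90 and 12.95 on the cisplatin arrays, against 13.11, 12.60 and 12.37 on the control arrays (-0.48 ± 0.34, adjusted p = 0.6). Dimmer DNMT3B probes differed by -0.05 ± 0.34 and -0.28 ± 0.24. MYC read 10.26, 10.01 and 8.86 on the cisplatin arrays, against 9.86, 10.18 and 10.09 on the control arrays (-0.34 ± 0.35, adjusted p = 0.716), and its lower mean came from replicate 3. The dimmer MYC probe differed by 0.04 ± 0.23 (adjusted p = 0.955).

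Stress signaling genes were mostly above the control mean without passing. In 24 tested genes of the unfolded protein and integrated stress responses the median was 0.37 log2 units, 7 had all cisplatin arrays above all controls (6.8% of all genes did), and TRIB3, a pseudokinase induced by ATF4, was shown by all 3 arrays at 7.54, 8.60 and 7.27 on the cisplatin arrays, against 6.65, 6.07 and 6.32 on the control arrays (1.45 ± 0.35, limma adjusted p = 0.441). In 26 tested immediate early and AP-1 genes the median was 0.24 and 5 stood above all controls. ATF3, a stress-induced repressor, read 8.82, 8.89 and 9.39 on the cisplatin arrays, against 8.69, 8.47 and 8.41 on the control arrays (0.51 ± 0.23, adjusted p = 0.492). No member of the interferon list (16 tested, median 0.26) or of the list of NF-kappaB targets and secreted factors (7 tested, 0.12) passed, and none of 19 mesoderm and endoderm factors reached the detection rule.

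Small noncoding RNAs made up 8 of the 95 genes higher on all 3 arrays, where 0.918% of all genes were, and 87 such genes were tested. This set was chosen after its values were seen. SNORD87, a small nucleolar RNA, was lower on all 3 arrays, and the set's medians were 0.03, 0.10 and -0.02 log2 units on cisplatin replicates 1, 2 and 3. RNU4-2, a U4 spliceosomal RNA, read 10.75, 10.11 and 9.96 log2 units on the cisplatin arrays, against 8.67, 8.26 and 8.48 on the control arrays (1.81, limma adjusted p = 0.0607), and RN7SK, the 7SK RNA that restrains P-TEFb, read 9.21, 8.90 and 8.38 on the cisplatin arrays, against 7.49, 7.14 and 7.51 on the control arrays (1.45, adjusted p = 0.202). SNORD3C, a U3 small nucleolar RNA, read 7.88, 7.73 and 7.63 on the cisplatin arrays, against 6.42, 6.13 and 5.96 on the control arrays (1.57 ± 0.21, adjusted p = 0.0567). Members of the U1, U3 and U4 families share near-identical sequence, so a probe may read several of them. The probes did not all move alike. RNU4-1, another U4 RNA, was higher on replicates 2 and 3 only, and RNU1-1, a U1 RNA, on replicate 1 only. RNU2-1 and RNU6-1 changed in opposite directions on different arrays. SLC7A14, a member of the cationic amino acid transporter family, completed the higher genes named by rule at 7.29, 7.34 and 6.88 on the cisplatin arrays, against 5.74, 5.57 and 5.72 on the control arrays, where it was not detected (at least 1.78-fold, adjusted p = 0.0607).

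Changes on single arrays came mainly from cisplatin replicates 2 and 3. Replicate 1 alone showed 135 genes as higher and 93 as lower, replicate 2 alone 844 and 744, and replicate 3 alone 759 and 1100. Pairs of arrays were as uneven, with 436 higher and 783 lower genes shared by replicates 2 and 3 only, 131 and 63 by replicates 1 and 2 only, and 21 and 7 by replicates 1 and 3 only. The genes shown as higher by replicates 2 and 3 only had a median length of 17929 bases in RefSeq, those shown as lower 38671, and all tested genes 28180. For replicate 2 alone the median lengths were 20398 (higher) and 38441.5 (lower), and for replicate 3 alone 24658 and 32970. For replicate 1 alone the order was reversed, at 33554 and 23820. On replicate 1 the sets shared by replicates 2 and 3 only had medians of -0.04 and -0.03 log2 units. The rule itself holds these near 0, since replicate 1 must not show such genes. With median scaling single arrays showed 2367 genes as higher and 1553 as lower, and with cyclic loess 2158 and 1502, so the direction of the balance on single arrays turned with the scaling.

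The largest single-array differences are given as a description. On replicate 1 alone they included NTS, which encodes neurotensin, at 9.54 log2 units against 8.32 and 7.91 on the other cisplatin arrays and 7.92 to 8.34 on the controls, and CXCL14, a chemokine, at 7.67 against 6.83 and 6.33 on the others and 6.04 to 6.52 on the controls. ANXA3 and COL5A2 completed the higher side, and EPOP, NBEAL2, FHOD3 and ZFX the lower. EPOP and ZFX read 5.94 and 6.11 on replicate 1 and were detected on 2 of 3 cisplatin arrays and on all 3 controls. None of these 8 genes passed the test.

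On replicate 2 alone, TAF15, an RNA-binding protein of the FET family, read 8.75 log2 units against 11.73 and 11.48 on the other cisplatin arrays and 10.94 to 11.64 on the controls, and PIGQ, of the GPI anchor pathway, read 9.66 against 7.47 and 7.74 on the others and 7.02 to 7.55 on the controls. NENF, ADAP1 and RPS6KB2 were the other largest higher genes, and MOB3B, TBL1XR1 and ZNF679 the other lower ones. On replicate 3 alone, CAMK2N2 read 9.57 against 6.10 and 7.52 on the others and 6.14 to 7.59 on the controls, and HNRNPL, a splicing factor, read 11.50 against 8.58 and 9.68 on the others and 8.86 to 9.61 on the controls. TAF6 and NCDN were further higher genes, and PLEKHO1, PRR3, TMEM126B and TMSB15B the largest lower ones. A single array gives no replicate check, and the part of array quality in these values was not tested.

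Cisplatin was set beside 3 day 5-aza, the other DNA-directed treatment. The dose, the duration and the recovery differed, and both groups share the control arrays. The direct difference between the treated groups does not use the control values. Its SE and p, however, rest on a spread pooled over all 12 arrays, controls included. Genes had a median SD of 0.37 log2 units in cisplatin, 0.17 in control and 0.12 in 3 day 5-aza. The pooled spread can therefore be too small for cisplatin, and the SE, p and counts of this contrast share that limit. In limma on all 12 arrays 1037 genes were higher (10%) and 1419 lower (13.7%) in cisplatin than in 3 day 5-aza, and of the 31 named genes, most chosen by their cisplatin values, 14 were higher and 9 lower. CDKN1A averaged 11.04 ± 0.32 log2 units in cisplatin and 9.68 ± 0.03 in 3 day 5-aza (SD, n = 3 each), a difference of 1.36 ± 0.20 (SE, adjusted p = 0.00078). ACTA2 averaged 8.36 ± 0.36 in cisplatin and 6.76 ± 0.19 in 3 day 5-aza (adjusted p = 0.00016). PHLDA3 averaged 8.89 ± 1.02 in cisplatin and 6.34 ± 0.37 in 3 day 5-aza, where 1 of 3 arrays detected it (adjusted p = 0.00075). DDB2 was not detected in 3 day 5-aza and was at least 2.69-fold higher in cisplatin (adjusted p = 0.0005).

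GDF15 went the other way, at 8.72 ± 0.07 log2 units in cisplatin and 9.63 ± 0.12 in 3 day 5-aza (SD, n = 3 each), a difference of -0.91 ± 0.14 (SE, limma adjusted p = 0.0013). Against the controls, GDF15 was at least 5.21-fold higher in cisplatin and at least 9.76-fold higher in 3 day 5-aza. GADD45A averaged 10.39 ± 0.10 in cisplatin and 10.18 ± 0.12 in 3 day 5-aza (0.21 ± 0.16, adjusted p = 0.35) and CFD 7.21 ± 0.18 in cisplatin and 7.09 ± 0.07 in 3 day 5-aza (0.11 ± 0.17, adjusted p = 0.68), and neither difference passed. The pluripotency genes GDF3 (0.29 and -2.03, difference 2.32 ± 0.18, adjusted p = 1.0e-05) and NANOG (0.11 and -1.31, 1.42 ± 0.15, adjusted p = 7.8e-05) and also MYC (-0.34 and -2.01, 1.68 ± 0.28, adjusted p = 0.0018) were higher in cisplatin than in 3 day 5-aza. Of the 21 pluripotency genes, 8 were higher in cisplatin (10% of all genes were) and 0 lower (13.7%) by this test.

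Mitotic genes differed in the opposite direction. Of the 31 G2/M genes, 9 were lower in cisplatin than in 3 day 5-aza (13.7% of all genes were) and 0 higher (10%). The median difference of the 31 genes from control was -0.43 log2 units in cisplatin, 0.00 in 1 day 5-aza and -0.05 in 3 day 5-aza. PLK1 differed from control by -1.18 in cisplatin and -0.02 in 3 day 5-aza (difference -1.16 ± 0.22, limma adjusted p = 0.0041), and BUB1 by -0.98 and -0.16 (-0.82 ± 0.18, adjusted p = 0.0081). BUB1B was lower in both treatments, at -0.93 and -1.20 (0.27 ± 0.20, adjusted p = 0.36). HESX1, at -2.02 in cisplatin and -2.46 in 3 day 5-aza, and TOX3, at -1.53 and -1.47, were likewise lower in both, with differences of 0.43 ± 0.35 and -0.05 ± 0.30.

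**Figure D5:**
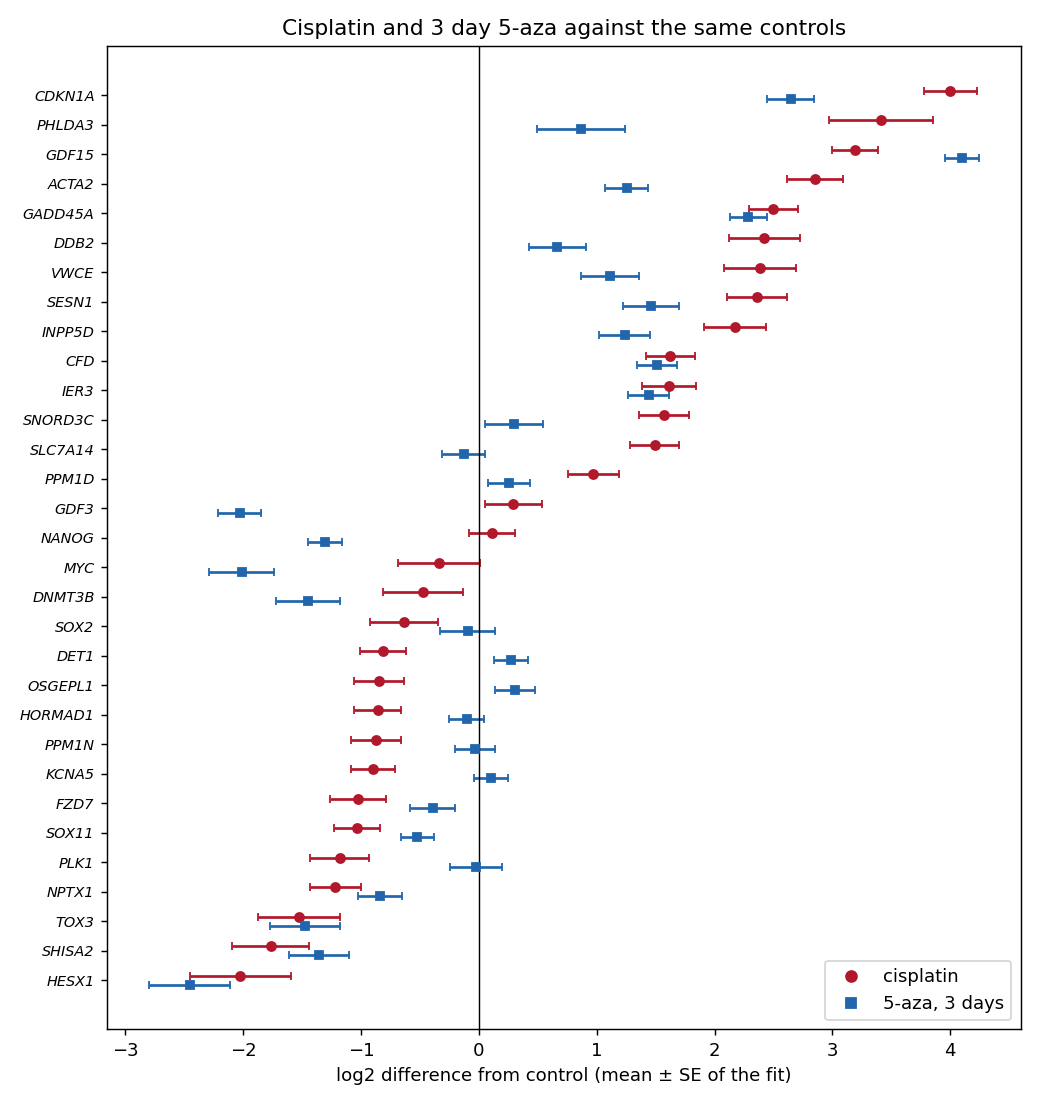
Log2 difference from the same 3 control arrays (horizontal axis) of the 31 named genes in cisplatin (red circles, ± SE of the fit on 6 arrays) and 3 day 5-aza (blue squares, ± SE of the fit on 12 arrays). Fitted values are drawn throughout, including genes with a group that was not detected, such as GDF15, PHLDA3 and DDB2, where the distance from 0 has only a bound. CDKN1A, PHLDA3 and DDB2 lie further right in cisplatin, GDF15 further right in 3 day 5-aza, and GDF3, NANOG and MYC lie near 0 in cisplatin and between -2.03 and -1.31 in 3 day 5-aza.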

How the data were processed

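RNA was extracted with Trizol, and biotinylated cRNA was hybridised to Illumina HumanHT-12 v4 arrays. The authors deposited mean bead intensity per probe from GenomeStudio, linear and not normalized, with a detection p-value per probe against negative control beads, and a second deposited table of quantile normalized intensity, which was used as an alternative. The lowest deposited intensity was 41.6. The first table was background corrected with limma's neqc, a normal-exponential fit whose negative control levels are read off the detection p-values (offset 16), which also quantile normalizes the 12 arrays and takes log2. Of 47231 probes, 30112 had 1 gene symbol, 8 had several and 17111 were unnamed. Kept probes without a single symbol were tested in the same fit and counted apart. Symbols came from the platform annotation, updated through RefSeq.

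Differences were tested with limma 3.58.1 in R 4.3.3 on the 6 arrays (4 residual and 4.89 prior degrees of freedom), with Benjamini-Hochberg adjustment over all 17279 kept probes. The 6-array fit was used since cisplatin arrays had a larger spread. The number of arrays, with 3 in each group, limits precision.

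The members and gene lists were chosen with earlier results of these data known. Named genes were the 12 largest rises and falls among called genes, filled by smallest p among genes shown by all 3 arrays, up to 4 called members per list, the genes the study named, and the 4 largest higher and lower genes of each single array. Of the genes the study named, PLK2, which it lists among genes induced only by cisplatin, was not tested. Single genes outside this rule were named after their values were seen, to illustrate lists. All gene lists not described gave no called gene: in the lists of MYC and ribosome (24 tested), histones (15), TGF-beta and BMP (16), neural and HOX (16), epithelial (8), cholesterol (17) and glycolysis (25) genes 0 passed, and of 12 DNA methylation genes only GADD45A did. Of 6 neural markers 3 were kept. Withheld items are not reported here.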

Additional observations from a re-analysis of the deposited data

How the results depend on the processing

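The count of genes called was the result most open to processing. It was 10 in the fit reported and also 10 with cyclic loess and with a detection p under 0.01, 12 with only the 6 arrays normalized together, 4 without background correction, 5 with median scaling, 4 from the deposited normalized table, 5 with an offset of 50, 3 with no filter on dim probes, 16 with array weights by group, 16 when adjusted over 1 probe per gene, 18 with trend and robust variance moderation, and 4 at an adjusted p under 0.01. With all 12 arrays in the fit 108 genes passed, with array quality weights 832 (394 higher, 438 lower) and at an unadjusted p under 0.05 with at least 1.5-fold 853. Cisplatin replicate 1 alone against the controls, chosen after seeing the data, gave 27 genes, but this assumes that 1 array varies like the controls, so the count supports nothing. Leaving out each array gave 2 to 920 genes. The members of gene lists among these were 7, against 4 (no background correction, median scaling, deposited table and adjusted p under 0.01), 3 (no filter), 29 (12 arrays), 63 (array weights), 70 (unadjusted), 11 (replicate 1 alone) and 2 to 60 without single arrays. The cause of these shifts was not tested.

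The genes shown by all 3 cisplatin arrays numbered 127, against 56 in the deposited table, 58 without background correction and 29 at 2-fold. They numbered 132 to 153 when each control was left out. Without a cisplatin array the rule asks for 2 arrays only, and the count was 1374, 156 and 336 without cisplatin replicates 1, 2 and 3. Single-array genes numbered 3675, against 1770 at 2-fold. The log2 difference of MYC, -0.34, ranged from -0.61 to 0.089 when each array was left out, reversed only without cisplatin replicate 3, and reversed to 0.21 with cisplatin replicate 1 alone. Of the 31 genes recomputed under each alternative, MYC alone reversed. The genes named for single arrays were recomputed with median scaling, with cyclic loess, from the deposited table and without background correction. In 42 of these values the difference moved by at least the SD of the gene among controls. The named genes that differed between cisplatin and 3 day 5-aza numbered 23, and 19 with median scaling.

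The deviations of same-numbered cisplatin and control arrays correlated at r of -0.31, 0.23 and -0.54 across genes. Those of differently numbered arrays correlated at -0.38 to 0.57. Deviations within so small a group depend on each other, so these values cannot tell whether same-numbered arrays shared a culture or a day. With the replicate block 6 genes were called, all among the 10. Signal near background limits genes such as NPTX1, HORMAD1 and CFD, whose dimmer group has only a bound.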
